A study of Mus musculus with 5 samples.

Results

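The alpha and beta tubulin isotypes are the 10 genes Tuba1a, Tuba1b, Tuba1c, Tuba4a, Tubb2a, Tubb2b, Tubb3, Tubb4a, Tubb4b and Tubb5, of 19087 genes on the array. They were chosen by name, as the probes whose annotated gene is one of these 4 alpha and 6 beta tubulin genes, which gave 15 probes. Each of the 15 probes was measured on all 5 arrays, so every member entered the fit. The arrays compared N18 cells, a mouse neuroblastoma line, infected with the pAd-Dyrk1a adenovirus, which delivers Dyrk1a, with N18 cells infected with a control adenovirus (pAd-Track-CMV). Both groups therefore carried virus. Each of 5 two-colour arrays held 1 Dyrk1a RNA and 1 control vector RNA, with Dyrk1a in Cy5 in replicates 1, 2 and 3 and in Cy3 in replicates 4 and 5. The time after infection and the viral dose are not given in the sources used here.

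Alpha and beta tubulin pair into the heterodimers that polymerize into microtubules. The isotypes are encoded by separate genes and differ mostly in their acidic C-terminal tails, which many microtubule-associated proteins and motors contact. Neurons contain isotypes that are scarce in most other cells, whereas other isotypes occur in almost every tissue and supply the mitotic spindle of dividing cells. Here Tuba1a, Tubb2a, Tubb2b, Tubb3 and Tubb4a were counted as neuronal and Tuba1b, Tuba1c, Tubb4b and Tubb5 as widely expressed. Tuba4a, found in brain and also in muscle and platelets, was placed in neither class.

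Every value is the log2 of the Dyrk1a signal over the control vector signal on an array, centred on that array's median, so a value above 0 means more transcript in the Dyrk1a cells. They are differences and carry no information on how abundant an isotype is, and for the same reason the cell line could not be checked against marker levels. The log base was inferred from the size of the values. If the base were natural, each ratio would be 1.44 times as large, with the same sign and p. The Dyrk1a probe of the reference transcript was at 2.46, 2.30, 1.93, 3.02 and 2.37 in replicates 1 to 5. The direction of the ratios was inferred from its sign, so it cannot check that direction. Its values show only that both dye orientations share a sign. Its fitted log2 ratio was 2.46 (SE 0.118), with a limma adjusted p of 0.0139, and it was the single gene called. Another 2 Dyrk1a probes, annotated to complementary DNA clones, were not measured on all 5 arrays and stayed out of the fit. Probe 4200 was at 0.124 in replicate 1 and 0.009 in replicate 5 as deposited. Probe 18171 was at -0.062, -0.07, 0.024 and -0.047 in replicates 1 to 4 as deposited. Whether the delivered sequence contains their targets is not known here. The call was lost without replicate 1, 4 or 5, where Dyrk1a was at 2.406, 2.302 and 2.626. Replicate 2 stood apart from the other arrays, with an interquartile range over tested features of 0.293, against 0.153 to 0.175 in the others.

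In the fit over all features, which had a Dyrk1a effect and a dye effect for every gene, 0 of the 10 tubulin genes passed an adjusted p under 0.05 in limma, where 0.00894% of tested genes did. At an unadjusted p under 0.05 there were 4, Tuba1c, Tubb3, Tubb2b and Tuba1a, against 11.6% of all genes. The 5 neuronal isotypes all had fitted ratios above 0, from 0.083 to 0.254, with a median of 0.138. The 4 widely expressed isotypes ran from -0.285 to 0.053, with a median of 0.017. Without replicate 2 the neuronal median was 0.159, with Tubb4a below 0, and the widely expressed median was -0.075. With array weights these medians were 0.189 and -0.066. Over all 11191 genes the median was 0.008 and 54.9% of genes were above 0. From the highest fitted ratio down, the order was Tubb3, Tubb2b, Tuba1a, Tubb4a, Tubb2a, Tuba4a, Tubb4b, Tuba1b, Tubb5 and Tuba1c. No 2 neighbours in this order differed by more than the SD of their difference over the 5 arrays. That SD lacks a dye term, so it includes any split by dye orientation and cannot rank genes that have one. For Tubb5, which split by orientation, and Tuba1c the SD was 0.378. Their fitted ratios, with the dye term, were -0.017 (SE 0.038) and -0.285 (SE 0.032). The fitted difference of 0.267 was well above either SE, and it was not tested. Tubb3 and Tuba1c, at the ends of the order, differed on every array, by 0.521 ± 0.170 (SD, n = 5). They were picked as its ends from these same arrays, so a wide gap was largely set by that choice.

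**Figure D1:**
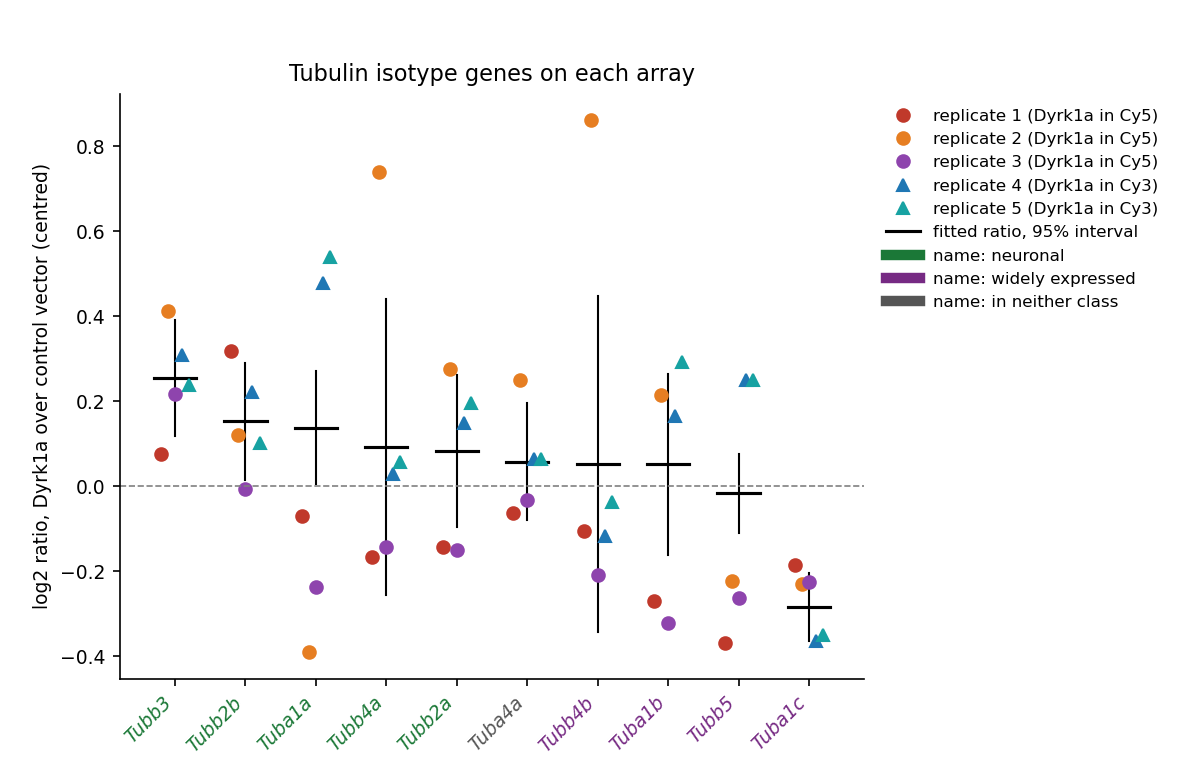
Centred log2 ratio of Dyrk1a over control vector (y axis) for each tubulin gene (x axis), with 1 point per array, circles for Dyrk1a in Cy5 and triangles for Dyrk1a in Cy3. Horizontal bars are the fitted ratios and vertical lines their 95% intervals. Tubb3 is above 0 and Tuba1c below 0 on all 5 arrays, while Tuba1a and Tubb5 split by dye and Tubb4a and Tubb4b have 1 high point, replicate 2.

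Tubb3 encodes class III beta-tubulin, the isotype used as a marker of neurons. Its ratios were 0.076, 0.413, 0.218, 0.308 and 0.239 in replicates 1 to 5. All were above 0, as for 6.71% of genes. The fitted ratio was 0.254 (SE 0.056, 95% interval 0.117 to 0.392), a 1.19-fold higher level, and 52 of 11191 genes had a higher one. In limma the adjusted p was 0.177, short of the threshold. Without replicate 2, the highest array, the ratio was 0.21 and the limma adjusted p 0.0428, where 0.858% of genes were called higher. Tubb3 was not called with any other array left out, at a limma adjusted p of 0.36 without replicate 1 and 0.34 without replicate 3.

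Tubb2b and Tubb2a encode class II beta-tubulins that are abundant in brain, and they lie next to each other on chromosome 13, with 0 protein-coding genes between them in the gene table. Tubb2b had ratios of 0.317, 0.121, -0.007, 0.222 and 0.102 in replicates 1 to 5, so 4 arrays were above 0 and replicate 3 just below it. Its fitted ratio was 0.153 (SE 0.056, limma adjusted p = 0.399). For Tubb2a, the mean of 3 probes, the ratios were -0.143, 0.276, -0.15, 0.148 and 0.196. Replicates 1 and 3 were below 0 and the others above, and the fitted ratio of 0.083 (SE 0.073) was close to its error. It was 0.013 without replicate 2. The difference of Tubb2b minus Tubb2a was 0.086 ± 0.242 (SD, n = 5), less than its spread over the arrays.

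Tubb4a encodes class IVa beta-tubulin, a brain isotype, and Tubb4b encodes class IVb, which occurs in most tissues. Both depended on 1 array. Tubb4a was at 0.739 in replicate 2 and at -0.166, -0.144, 0.028 and 0.057 in replicates 1, 3, 4 and 5. For Tubb4b the value in replicate 2 was 0.861, and the other 4 arrays were below 0, at -0.106, -0.209, -0.118 and -0.036. The fitted ratios were 0.093 (SE 0.141) for Tubb4a and 0.053 (SE 0.161) for Tubb4b, the 2 largest errors among the members. Without replicate 2 both turned negative, Tubb4a at -0.056 (limma adjusted p = 0.343) and Tubb4b at -0.117 (limma adjusted p = 0.14). Replicate 2 held the largest absolute ratio for 5 of the 10 tubulin genes and for 46.7% of all genes.

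The 3 alpha tubulin genes Tuba1a, Tuba1b and Tuba1c follow each other on chromosome 15, with 0 protein-coding genes between neighbours in the gene table. Tuba1c differed in pattern from the others, while Tuba1a and Tuba1b differed in sign only in replicate 2. Tuba1c, a widely expressed isotype, was at -0.185, -0.229, -0.225, -0.364 and -0.349 in replicates 1 to 5. Every array was below 0, as for 6.32% of genes, and their SD of 0.081 was the smallest of any member. The fitted ratio was -0.285 (SE 0.032, 95% interval -0.365 to -0.205), a 1.22-fold lower level, and 113 of 11191 genes had a lower one. Its limma adjusted p of 0.0605 was the lowest of the members but did not pass. Without replicate 2 the fitted ratio was -0.281 and the limma adjusted p 0.0192, where 2.5% of genes were called lower. It was not called with any other array left out, at a limma adjusted p of 0.334 without replicate 1 and 0.201 without replicate 3.

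Tuba1a encodes the alpha isotype that predominates in developing neurons. In replicates 1, 2 and 3, where Dyrk1a RNA carried Cy5, its ratios were -0.071, -0.39 and -0.238. In the swapped replicates 4 and 5 they were 0.478 and 0.539. The orientations did not overlap and had opposite signs. The fitted ratio was 0.138 (SE 0.054, limma adjusted p = 0.429), and a plain mean over the 5 arrays, which does not balance the orientations, was 0.064. Tuba1b, the alpha isotype of most tissues, was at -0.27, 0.214, -0.322, 0.166 and 0.293 in replicates 1 to 5. Its fitted ratio of 0.052 (SE 0.087) was within its error, and it was -0.033 without replicate 2. The difference of Tuba1b minus Tuba1c was 0.287 ± 0.352 (SD, n = 5), and that of Tuba1a minus Tuba1c 0.334 ± 0.495 (SD, n = 5), each above 0 on 3 of 5 arrays. Both differences lack a dye term, so their SDs include the split by orientation. Tuba1a minus Tuba1c averaged -0.02 with Dyrk1a in Cy5 and 0.865 with it in Cy3. Tuba1b minus Tuba1c averaged 0.087 and 0.586.

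Tubb5, class I beta-tubulin, is the isotype found in most dividing cells. Its ratios, the mean of 2 probes, were -0.368, -0.224 and -0.262 in replicates 1, 2 and 3 and 0.249 and 0.251 in the swapped replicates 4 and 5. The orientations again had opposite signs, and the fitted ratio was -0.017 (SE 0.038, 95% interval -0.11 to 0.075). Tuba4a, the mean of 3 probes, was at -0.064, 0.25, -0.032, 0.063 and 0.065, with a fitted ratio of 0.058 (SE 0.056), and 0.008 without replicate 2.

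**Figure D2:**
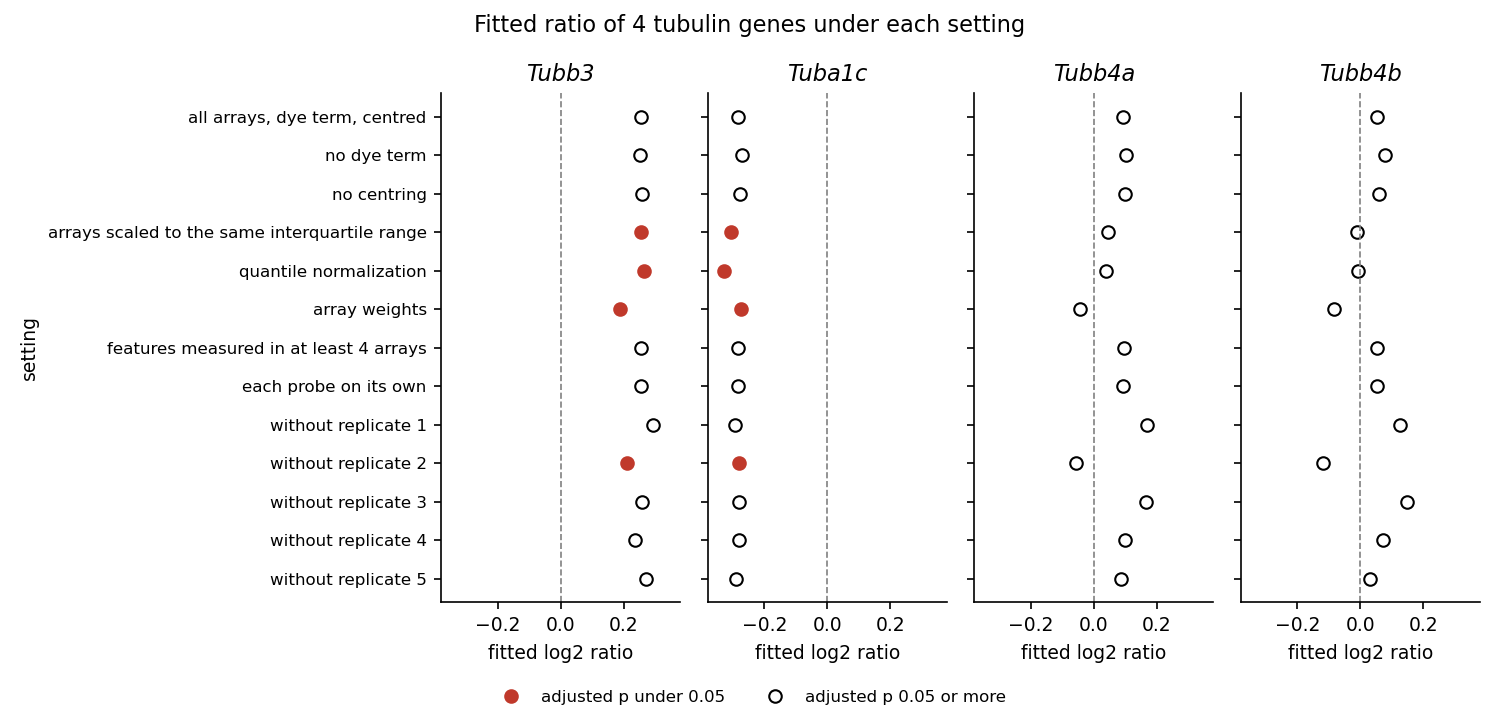
Fitted log2 ratio of Dyrk1a over control vector (x axis) for Tubb3, Tuba1c, Tubb4a and Tubb4b under the reported setting and 12 alternatives (y axis), filled where the limma adjusted p is under 0.05. Tubb3 and Tuba1c keep their sign in all of them and are filled in 4, while Tubb4a and Tubb4b change sign when replicate 2 is left out.

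The number of tubulin genes called differed between settings. It was 2, Tuba1c and Tubb3, with the arrays scaled to the same spread, where 1.94% of genes were called in limma, and the same 2 with quantile normalization, where 2.12% were. Array weights estimated by limma added Tuba1a and Tubb2b, 4 in all, where 12.0% were called.

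The neuronal and the widely expressed isotypes were then set against each other within each array, where any shift shared by all tubulin probes drops out. The mean ratio of the 5 neuronal isotypes was 0.003, 0.232, -0.064, 0.237 and 0.227 in replicates 1 to 5. That of the 4 widely expressed isotypes was -0.232, 0.156, -0.254, -0.017 and 0.04. The class means moved together from array to array, but the neuronal one was the higher on each. Neuronal minus widely expressed was 0.235, 0.076, 0.19, 0.254 and 0.187, a mean of 0.188 ± 0.069 (SD, n = 5). It was 0.167 on average with Dyrk1a in Cy5 and 0.22 with it in Cy3, and 0.216 without replicate 2.

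No p is attached to this difference, because the genes and classes were chosen with results of these arrays known. It rested in part on the members at the ends of the order. Leaving out Tubb3 gave 0.157 ± 0.083 (SD, n = 5), above 0 on 5 of 5 arrays. With Tuba1c left out, an alternative added after seeing the data, it was 0.119 ± 0.120 (SD, n = 5), about the size of its spread, and replicate 2 was at -0.052. Counting Tuba4a as neuronal gave 0.177 ± 0.061 (SD, n = 5).

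**Figure D3:**
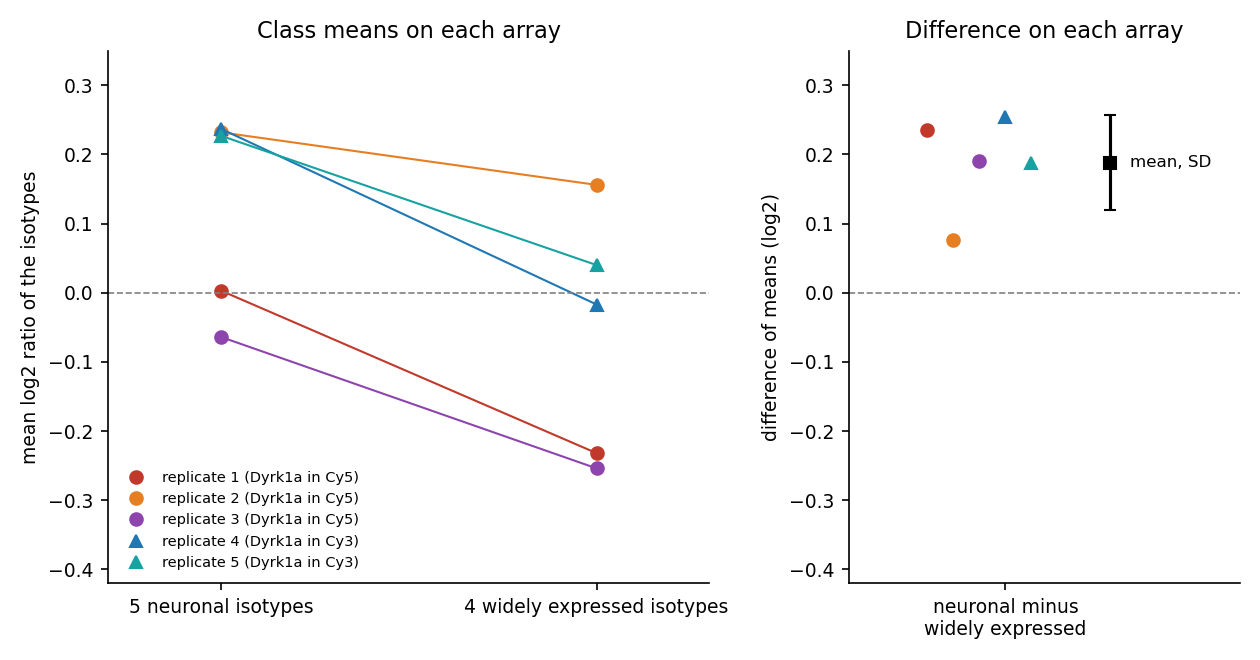
Left, mean log2 ratio of Dyrk1a over control vector (y axis) over the 5 neuronal and the 4 widely expressed isotypes, with 1 line per array. Right, the difference of the class means on each array, with its mean and SD (square). The lines all slope down to the widely expressed class, and the smallest difference, 0.076, is that of replicate 2.

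In some tubulin genes the ratio followed the dye orientation. The dye effect is the other coefficient of the fit and is positive where the ratio was higher with Dyrk1a RNA in Cy5. It was -0.371 (SE 0.054, limma adjusted p = 0.0298) for Tuba1a and -0.267 (SE 0.038, limma adjusted p = 0.0279) for Tubb5. These 2 of the 10 members passed, where 1.33% of all genes did. In absolute size 99.8% of genes had a smaller dye effect than Tuba1a and 99.0% a smaller one than Tubb5. With 1 array left out, both effects kept their sign, between -0.411 and -0.332 for Tuba1a and between -0.283 and -0.246 for Tubb5. The limma adjusted p was under 0.05 without replicate 2, at 0.00586 for Tuba1a and 0.00554 for Tubb5, where 10.6% of genes passed for the dye, and over 0.05 without any 1 of the others, from 0.076 to 0.314 for Tuba1a and from 0.068 to 0.313 for Tubb5. Without replicate 2 the dye effect also passed for Tuba1b, at -0.263 (limma adjusted p = 0.00869), and for Tubb2a, at -0.159 (limma adjusted p = 0.0233), 4 of the 10 members in all. The pattern of below 0 with Dyrk1a in Cy5 and above 0 with it in Cy3 was found in 7.66% of all genes.

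Of the rest, Tuba1b, Tuba4a, Tubb2a and Tubb4a shared that pattern except in replicate 2, being below 0 in replicates 1 and 3 and above 0 in replicates 2, 4 and 5. Among all genes 7.42% had these signs. Tubb3, Tubb2b and Tuba4a had dye effects near 0, of -0.019, -0.009 and -0.006, and that of Tuba1c was 0.072 (SE 0.032, limma adjusted p = 0.341). Since 3 arrays had one orientation and 2 the other, a mean over the arrays without the dye term would place Tuba1a at 0.064 and Tubb5 at -0.071.

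**Figure D4:**
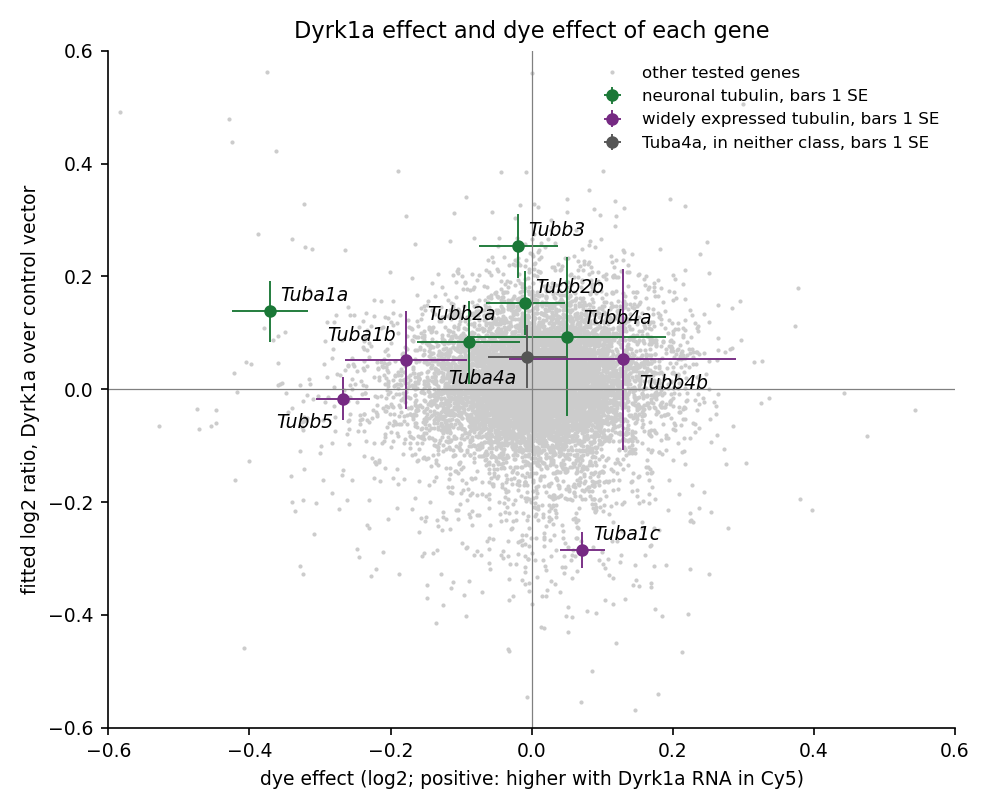
Fitted log2 ratio of Dyrk1a over control vector (y axis) against the dye effect (x axis, log2) for the tubulin genes with bars of 1 SE, and for the other tested genes in grey; 2 genes lie beyond the axes. Tuba1a and Tubb5 are far to the left, while Tubb3 and Tuba1c lie near a dye effect of 0 at the top and the bottom.

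Where a gene had several probes, they did not all carry the same dye effect. Probe 8955 of Tubb5 was at -0.531, -0.518 and -0.427 in replicates 1, 2 and 3 and at 0.419 and 0.422 in the swapped arrays. Its dye effect tested on its own was -0.456 (SE 0.039, limma adjusted p = 0.00461). Probe 34933, annotated to the same transcript, was at -0.208, 0.07, -0.097, 0.086 and 0.084 in replicates 1 to 5, and its dye effect was -0.082 (SE 0.051, limma adjusted p = 0.476). On the Dyrk1a effect both lay near 0, at -0.036 (SE 0.039) and 0.003 (SE 0.051). The dye effect of the Tubb5 mean was thus mostly that of 1 probe.

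Tubb2a had 3 probes to 1 transcript. Probe 27979 was at 0.043, 0.172, 0.001, 0.131 and 0.138, above 0 on 5 of 5 arrays, with a fitted ratio of 0.103 (SE 0.043, limma adjusted p = 0.498). Probe 29696 ran from -0.302 to 0.271 and probe 18286 from -0.185 to 0.385, both below 0 in replicates 1 and 3. The 3 probes of Tuba4a had fitted ratios of 0.064, 0.032 and 0.081, and each was highest in replicate 2. The other 7 members rest on 1 probe each, that of Tuba1c annotated to a complementary DNA clone, and the others to reference transcripts. Tubulin genes are near-identical over much of their coding sequence, and where these probes bind was not analysed here, so signal shared between isotypes was not tested.

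**Figure D5:**
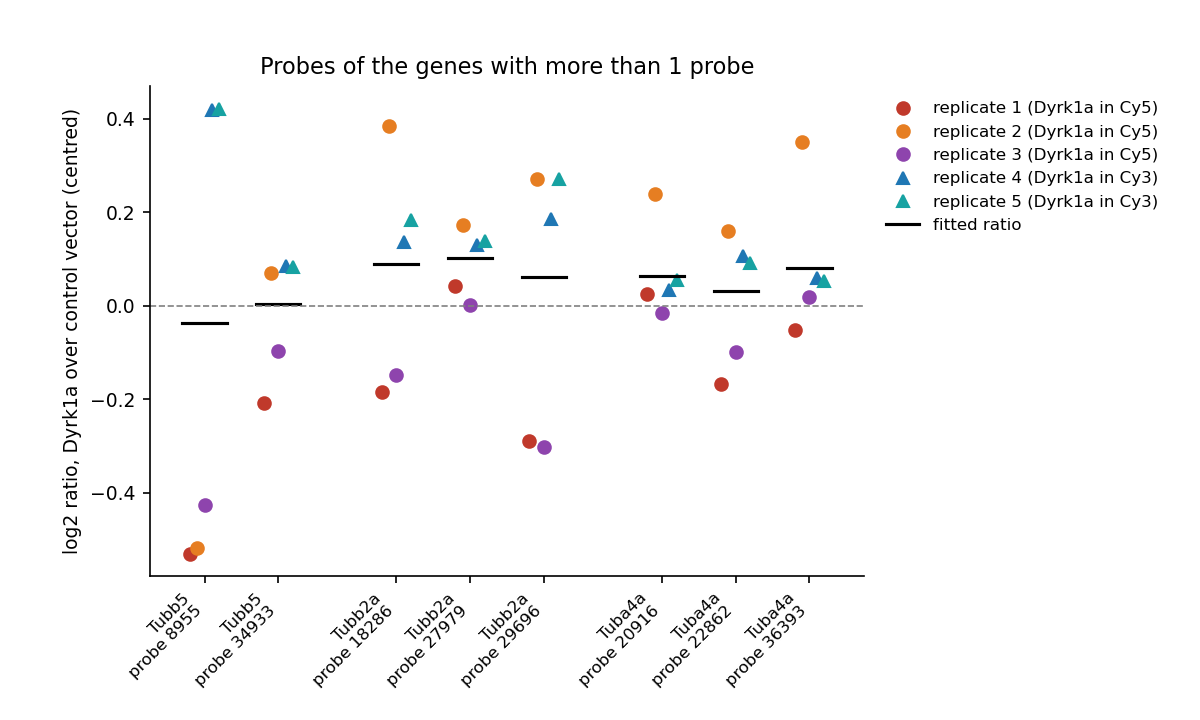
Centred log2 ratio of Dyrk1a over control vector (y axis) for each probe of Tubb5, Tubb2a and Tuba4a (x axis), with 1 point per array and a bar at the fitted ratio. The orientations separate most in Tubb5 probe 8955, which runs from -0.531 to 0.422.

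The regions upstream of the transcription start are shown for Tubb3 and Tuba1c, the members with the highest and the lowest fitted ratio, and for Tubb4b, which had the most matches of the motifs searched. They are the 250 bases before the RefSeq start on GRCm38.p6, 5′ to 3′ on the gene's strand, with motif matches in capitals. A CCAAT box was searched by the letters of its name. The core of the TATA box was searched as TATAA. The cell cycle homology region, an element of promoters active late in the cell cycle, was searched as TTTGAA. Each motif was read on both strands, and overlapping matches of 1 motif count separately. The Tubb3 window is chr8:123411303-123411552 on the plus strand, that of Tuba1c chr15:99029641-99029890 on the plus strand and that of Tubb4b chr2:25224703-25224952 on the minus strand.
Tubb3: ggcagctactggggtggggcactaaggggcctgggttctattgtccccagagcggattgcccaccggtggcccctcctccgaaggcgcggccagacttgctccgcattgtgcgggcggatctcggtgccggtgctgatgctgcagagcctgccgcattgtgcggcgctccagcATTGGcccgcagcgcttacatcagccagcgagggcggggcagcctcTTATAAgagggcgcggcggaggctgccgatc
Tuba1c: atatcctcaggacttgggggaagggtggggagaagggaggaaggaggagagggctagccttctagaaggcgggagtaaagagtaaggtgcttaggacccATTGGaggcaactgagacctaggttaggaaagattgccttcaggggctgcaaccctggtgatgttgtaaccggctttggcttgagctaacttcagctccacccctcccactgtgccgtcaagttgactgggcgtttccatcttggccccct
Tubb4b: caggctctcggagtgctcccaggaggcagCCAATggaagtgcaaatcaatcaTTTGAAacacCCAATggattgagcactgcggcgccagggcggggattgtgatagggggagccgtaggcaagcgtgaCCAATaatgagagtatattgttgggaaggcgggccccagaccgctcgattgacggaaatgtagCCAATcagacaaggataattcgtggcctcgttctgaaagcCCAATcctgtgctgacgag

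Tubb3 held 1 CCAAT box, 77 bases before the start, and 2 overlapping TATA core matches, 31 and 30 bases before it. Tuba1c held 1 CCAAT box, 151 bases before the start, and 0 of the other motifs. In Tubb4b there were 5 CCAAT boxes, from 221 to 19 bases before the start, and 1 cell cycle homology region at 198. Among 32851 windows of the same length, 33.8% held a CCAAT box, 22.8% a TATA core and 16.0% a cell cycle homology region, and 0.84% held 4 or more CCAAT boxes. Tubb4b was shown for having the most matches, so a high count was largely set by that choice. Tubb2b had no window here. Of the other members, Tuba1a held a CCAAT box and a TATA core, Tubb2a a TATA core and Tubb5 2 CCAAT boxes. Tuba1b, Tuba4a and Tubb4a held none of the 3. A match describes these letters and is not evidence that a factor binds there.

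Genes that make, fold, modify or cut tubulin polymers were counted beside the isotypes. Of 69 genes in 5 lists, 60 were tested, 0 were called in limma in either direction, and 5 had an unadjusted p under 0.05, where 11.6% of all genes did. Among the other tubulins, 7 of 10 were tested, with a median of -0.05. Tube1, which encodes epsilon-tubulin of centrioles, was at -0.269, -0.411, -0.294, -0.372 and -0.309 in replicates 1 to 5. It was below 0 on every array, as for 6.32% of genes. Its fitted ratio was -0.333 (SE 0.039, limma adjusted p = 0.0617), and -0.311 without replicate 2 (limma adjusted p = 0.0192). Without replicate 1 or 3, 0 genes of the 5 lists were called, where 0 and 1 of all 14307 features were. Tubb6, a beta isotype of many non-neural tissues, was at -0.058 (SE 0.044), and Tubd1, delta-tubulin, at -0.051 (SE 0.044).

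The chaperonin and prefoldin subunits that fold new tubulin had a median of 0.023 over 15 tested genes, 9 above 0 and 6 below. Pfdn1 and Vbp1, both prefoldin subunits, were at -0.15 (SE 0.058) and -0.088 (SE 0.034), and the chaperonin subunit gene Cct4 at 0.072 (SE 0.038). The folding cofactors that assemble the heterodimer had a median of 0.006 over 8 genes, with Tbcb at 0.112 (SE 0.061), Tbca at -0.044 (SE 0.044) and Ttc5, a factor in tubulin mRNA autoregulation, at 0.028 (SE 0.041). Tbca was at -0.153, -0.365 and -0.2 in replicates 1, 2 and 3 and at 0.172 and 0.131 in the swapped arrays, and its dye effect was -0.195 (limma adjusted p = 0.0965). Enzymes that modify tubulin tails or its acetylation had a median of 0.017 over 16 of 21 genes, from -0.044 to 0.095. Ttll1 and Ttll7, which add glutamates to tubulin tails, were above 0 on all 5 arrays, at 0.082 (SE 0.035) and 0.095 (SE 0.05), and the deacetylase gene Sirt2 was at 0.051 (SE 0.038). Ttll1 and Ttll7 were the only 2 of the 16 genes above 0 on every array, where 6.71% of all genes were. Naming genes by the smallest p of a list favours such constant signs.

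Severing and plus-end proteins had a median of -0.026 over 14 of 15 genes, 10 of them below 0. Fignl1, an ATPase of the fidgetin family, was at -0.252 (SE 0.041, limma adjusted p = 0.102). Ckap5, a microtubule polymerase of the spindle, was at -0.221 (SE 0.044, limma adjusted p = 0.15). Both were below 0 on 5 of 5 arrays, the only 2 of the 14 genes to be so, where 6.32% of all genes were. They too were named for their small p. Without replicate 2, where 2.5% of genes were called lower, Fignl1 was at -0.239 (limma adjusted p = 0.035) and Ckap5 at -0.25 (limma adjusted p = 0.0236). Without replicate 1 or 3, neither was called, where 0 and 1 of all 14307 features were. Fign, fidgetin itself, was at -0.062 (SE 0.04).

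Over the 5 arrays the genes closest to Tuba1c, the member with the smallest p, were found by the root mean square difference in centred log2 ratio, among 11190 genes. Lsm3, an RNA-processing gene, was closest, with a difference of 0.038, against a median of 0.311 over all genes. The search picks the smallest differences, so values far below that median were fixed in advance. Next were Ppih, a cyclophilin of the spliceosome, at 0.045, the replicative helicase gene Mcm4 at 0.05, the spindle checkpoint gene Mad2l1 at 0.051, and Cenpa, the centromeric histone variant, at 0.057.

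Markers of other cells could be read only as differences between the groups. Of 25 markers of neuroblasts, glia, fibroblasts and immune cells, 9 were tested and 0 were called in limma, where 0.00894% of all genes were. At an unadjusted p under 0.05 there were 0 of the 9, against 11.6% of all genes. With so few markers, these counts cannot show that marker levels were the same in both groups. The medians were 0.071 over 5 neuroblast genes and 0.053 over 2 fibroblast genes, and single genes of glia and immune cells were at -0.038 and 0.009. In these whole-culture samples, fewer cells of a kind and less RNA per cell cannot be told apart.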

How the data were processed

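The members, classes and lists were chosen with earlier results of these data known. The authors deposited log2 ratios for 44290 features in 1 table, with a column per array and 0 columns of other samples. Scanning, background correction and normalization are not given in the sources used here, nor are log base and direction. The base was inferred from the values, and the direction from the Dyrk1a probe, above 0 in both orientations. The platform annotation named 1 gene for 32042 probes, and 31906 matched the GRCm38.p6 gene table by Entrez identifier, used for names and gene order. A gene was the mean of its probes measured on all 5 arrays (11191 genes), tested beside 3116 features that name no gene or several, 14307 in all. Medians of 0.028, 0.051, 0.025, -0.026 and -0.021 were removed from replicates 1 to 5.

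limma 3.58.1 in R 4.3.3 (lmFit, eBayes, two-sided) fitted the Dyrk1a and dye effects with 3 residual and 2.87 prior degrees of freedom, and Benjamini-Hochberg adjustment ran over the 14307 features with a threshold of 0.05. The series text calls the samples independent, and nothing says more of their source, so p-values measure the spread between these 5 arrays, whose number limits the precision. The genes named are all members, Dyrk1a, the 3 genes of each partner list with the smallest p, and the 5 genes closest to the member with the smallest p. Alternatives were no dye term, no centring, equal array spread, quantile normalization, array weights, features on at least 4 arrays, single probes, and leaving out each array with the probes of each gene kept. Tables and plots used Python 3.11.15, pandas 2.3.3 and matplotlib 3.10.9.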

Additional observations from a re-analysis of the deposited data

Results flagged for a closer look

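A single array stood far from the others, by Dixon's test at the 95% level with a critical value of 0.71 for 5 arrays, in 2 of the 10 tubulin genes, and in both it was replicate 2. Tubb4a was at 0.739 there, against 0.057 on the next highest array, a gap of 0.754 of the whole range. Tubb4b was at 0.861 there, against -0.036 on the next, a gap of 0.838 of the range. Chance flags about 1 in 20 groups. Among all tested genes 9.5% had such an array, and in 78.6% of those it was replicate 2.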

How the results depend on the processing

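The analysis was paired within arrays, because each array sets 1 Dyrk1a RNA against 1 control vector RNA. No unpaired alternative was possible, because the table holds only their ratio. Each of the 10 tubulin ratios was recomputed under 12 alternatives, and of 120 values 99 kept their direction and side of the threshold, 10 passed it and 11 turned in sign. Scaling the arrays to the same spread called 262 features and 2 tubulin genes (Tuba1c, Tubb3), quantile normalization 296 and 2 (the same names), and array weights 1612 and 4 (Tuba1a and Tubb2b as well). Those settings called 2, 2 and 5 of the 60 tested partner genes, where 1.94%, 2.12% and 12.0% of all genes were called. The weights ran from 0.148 for replicate 2 to 3.74 for replicate 1, which dominated the arrays with Dyrk1a in Cy5. Replicates 4 and 5, at 1.76 each, set the other orientation, which the dye term counts equally. With 1 array left out, the number of features called ran from 0 to 444, of tubulin genes from 0 to 2 and of partner genes from 0 to 3. The highest counts came each time without replicate 2, where 3.36% of all genes were called. Dyrk1a was at 2.302 to 2.626, with its call lost without replicate 1, 4 or 5 (limma adjusted p = 0.334, 0.0985 and 0.0521). Without replicate 4 or 5, 1 orientation rests on 1 array, assumed to vary like the others. Over features on at least 4 arrays 0 were called, and Dyrk1a, then averaged with a probe near 0, was at 1.51 (limma adjusted p = 0.0686).

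The limma adjusted p of Tuba1c ran from 0.00125 to 0.845 over the alternatives, and that of Tubb3 from 0.0105 to 0.999. The sign turned for Tubb4b with equal spread (-0.01), quantile normalization (-0.007), array weights (-0.082) and without replicate 2 (-0.117), and for Tubb4a with array weights (-0.045) and without replicate 2 (-0.056). It also turned for Tuba1b with array weights (-0.016) and without replicate 2 (-0.033), and for Tubb5 with equal spread (0.007), quantile normalization (0.015) and without replicate 1 (0.003). With 1 array left out, the ranges were -0.033 to 0.101 for Tuba1b, -0.056 to 0.17 for Tubb4a, -0.117 to 0.15 for Tubb4b and -0.033 to 0.003 for Tubb5. The cause was not tested. Neuronal minus widely expressed kept its sign in every setting run and moved by as much as its SD over arrays only with Tuba1c left out, to 0.119. The mean of the 2 orientation means, added after seeing the data, was 0.194. That difference has no dye term, so no such alternative exists. Signal over background is not known here, so dim probes could not be set aside.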
